A study of Mus musculus with 18 samples.

Results

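The genes described here are 42 genes of cell death and cell survival, out of 54532 genes counted in RNA-seq libraries of sorted mouse cones. They were taken by their symbols from the BCL2 family, the apoptosome, the inhibitor of apoptosis proteins, the caspases, the death receptor and necroptosis proteins, the mitochondrial proteins that act without caspases, the PARP and p53 genes, the calpains and Hif1a. All 42 symbols were found in the count tables. The 18 libraries came from wild-type (WT) retinas, 1 library per retina, in 4 groups. BALB/c mice, an albino strain, gave 6 control and 6 Txnip libraries at postnatal day 21, and C57BL/6J mice gave 3 control and 3 Txnip libraries at postnatal day 35. All eyes were injected at birth with an AAV8 vector that expressed the nuclear label H2BGFP from a cone-specific promoter, which was used to sort the cones. The Txnip eyes also received AAV8 with Txnip, the thioredoxin-interacting protein, behind the human red opsin (RedO) promoter, so added Txnip was limited to cells in which that promoter is active. Strain and age changed together, so a difference between the strains and a difference between these ages cannot be told apart. The deposited count files also carry a different set name for each strain, so any difference between those sets cannot be told apart from strain either. Nothing in the labels ties libraries to mice, so p-values measure the spread between libraries.

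Cells die by several routes that share some parts. In the mitochondrial route of apoptosis, BH3-only proteins are held by anti-apoptotic BCL2 proteins or activate the pore formers BAX and BAK, cytochrome c then leaves the mitochondria and joins APAF1 to switch on caspase-9, and the inhibitor of apoptosis proteins restrain the caspases until SMAC (Diablo) displaces them. Necroptosis runs through RIPK1, RIPK3 and MLKL, and other routes use PARP1, AIF (Aifm1), endonuclease G or the calcium-activated calpains. Each of these routes has been studied in photoreceptors that degenerate, of which the cones in retinitis pigmentosa are one case. The cones studied here came from wild-type mice.

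The libraries held 647712 to 5172156 counted read pairs. Levels are given as counts per 1000000 (CPM) on TMM-scaled library sizes, and, for comparisons between genes, as RPKM, which is CPM per 1000 bases of exons. A count of 0 allows up to 3 counts, which were worth 0.582 to 4.65 CPM in a single library. Txnip, the check of the labels, had 0 to 3 counts in each of the 9 control libraries and 663 to 8536 in each of the 9 Txnip libraries, which was 821 to 1969 CPM. The 12 cone genes checked were detected in every group and took 3.71% to 9.76% of the counts. Of the other cell types, 7 rod genes took 0.0672% to 0.204% of the counts in 16 libraries, 1.30% in C57BL/6J control replicate 1 and 0.912% in C57BL/6J Txnip replicate 2. These 7 are the rod list without Sag and Pde6g, which were high in every library, and the members called between strains are therefore given with and without those 2 libraries, a choice made after seeing the data. The 11 microglia genes took at most 0.00541% of the counts, with Tmem119, Cx3cr1, Ctss, C1qc or P2ry12 at 0 in some groups. The 6 amacrine genes, all detected in every group, took 0.0299% to 0.0381% in BALB/c controls and 0.0384% to 0.0512% in BALB/c with Txnip, without overlap. In C57BL/6J they took 0.0115% to 0.0375%, which overlapped with the BALB/c controls. The medians were 0.0354% and 0.0448% in BALB/c, against 0.0122% and 0.0179% in C57BL/6J. Slc6a9, 1 of the 6, was higher in C57BL/6J. Müller glia genes took 0.0147% to 0.0261% in BALB/c and 0.00671% to 0.0961% in C57BL/6J, and bipolar genes 0.0102% to 0.0143% and 0.00549% to 0.0365%. The part of these cells in the strain differences was not tested, nor that of the amacrine share in the Txnip comparison of BALB/c. The ribosomal RNA locus took 6.00% to 16.3% of the counts in BALB/c and 3.27% to 27.6% in C57BL/6J, and this share was used as a covariate in an alternative fit.

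Genes of the mitochondrial route and of its inhibitors were expressed over a wide range, while Ripk3, Mlkl, Casp8 and the inflammatory caspases were near 0. By mean RPKM over the 18 libraries, 11 members were at 10 RPKM or more, 13 were between 1 and 10 RPKM, and 7 of those tested were under 1 RPKM. The median of the 31 members with enough counts to be tested across the 4 groups was 6.16 RPKM, against 5.21 RPKM for all 14751 genes tested. The plot of levels by library shows all 42 members.

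**Figure D1:**
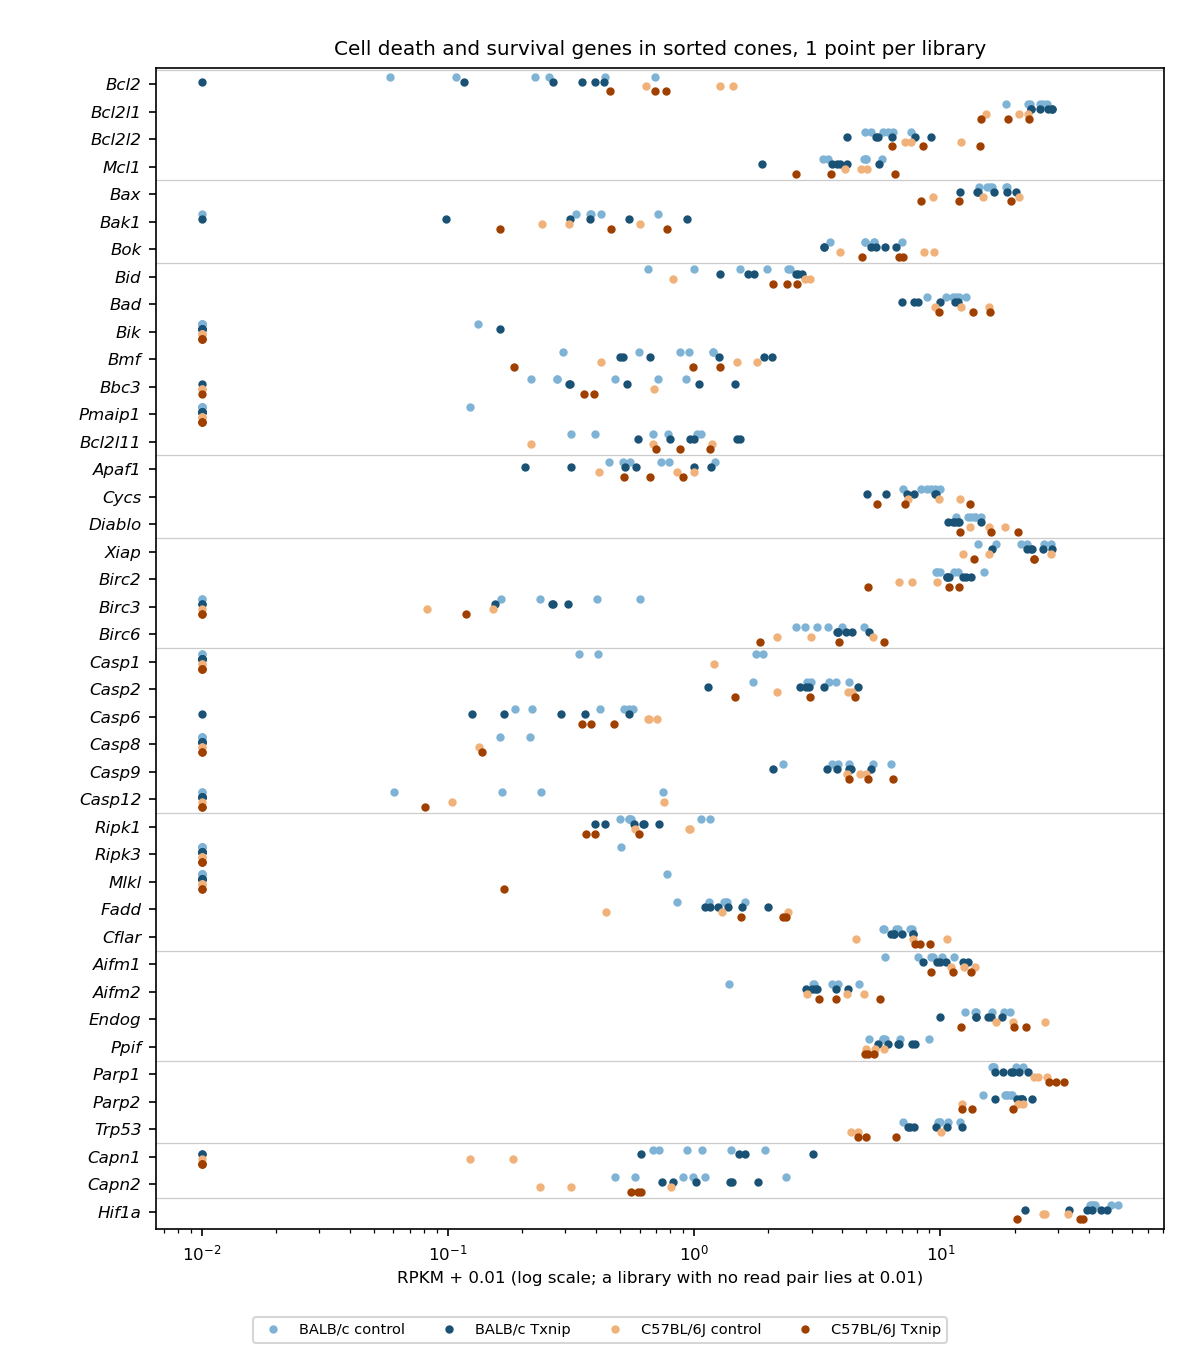
RPKM of the 42 genes in each of the 18 libraries (log axis, with 0.01 added so that a library with no read pair can be drawn, at 0.01), grouped by role between the grey lines and coloured by group. Hif1a, Bcl2l1, Parp1 and Xiap lie highest, between 21.5 and 37.6 RPKM on average, while Bik, Pmaip1, Casp8, Ripk3 and Mlkl lie at 0.01 in at least 14 of the 18 libraries.

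Among the anti-apoptotic BCL2 proteins, Bcl2l1, which encodes BCL-XL, was the highest at 23.0 RPKM. Bcl2l2, which encodes BCL-W, followed at 7.26 RPKM and Mcl1 at 4.27 RPKM, while Bcl2 itself averaged 0.467 RPKM. Cones thus held much more Bcl2l1 than Bcl2 mRNA per length in all 4 groups, at 18.7 to 26.0 RPKM against 0.251 to 1.10 RPKM. Of the pore formers, Bax reached 15.5 RPKM and Bok, a related protein, 5.64 RPKM. Bak1, the partner of Bax, was at 0.383 RPKM with at most 8 counts in a library.

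Of the BH3-only genes, 4 of 7 had enough counts to be tested. Bad, whose product binds BCL-XL, was at 11.1 RPKM, Bid, which caspase-8 cleaves, at 2.01 RPKM, Bmf at 1.00 RPKM and Bcl2l11, which encodes BIM, at 0.849 RPKM. Bbc3 (PUMA) had 47 counts in all 18 libraries together, Bik had 2 and Pmaip1 (NOXA) had 1. Of the apoptosome, Cycs (cytochrome c) was at 8.51 RPKM and Apaf1, its partner, at 0.678 RPKM, while Diablo was at 13.8 RPKM.

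The inhibitor of apoptosis genes were led by Xiap at 21.5 RPKM, the direct inhibitor of caspases, with Birc2 at 10.5 RPKM and Birc6 at 3.77 RPKM. Birc3, the close relative of Birc2, had 40 counts in all and none in 7 libraries. The initiator genes Casp9 and Casp2 were at 4.35 and 3.12 RPKM, and Casp6, an executioner, at 0.387 RPKM. Casp8, the initiator of the death receptor route, had 5 counts in all, and the inflammatory caspases Casp1 and Casp12 had 19 and 20.

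Necroptosis genes were low in both strains. Ripk3 had 2 counts, both in BALB/c control replicate 2, and Mlkl had 5 counts, 4 of them in BALB/c control replicate 4. Ripk1 was at 0.633 RPKM and Fadd, the adaptor, at 1.46 RPKM. Cflar, whose product FLIP blocks caspase-8, was at 7.22 RPKM. Casp8, Ripk3 and Mlkl had at most 4 counts in a library, too few to compare the groups.

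All 4 mitochondrial genes of caspase-independent death were expressed. Endog (endonuclease G) was at 16.6 RPKM, Aifm1 at 10.5 RPKM, Ppif (cyclophilin D, of the permeability transition) at 6.16 RPKM and Aifm2, also known as FSP1, a suppressor of ferroptosis, at 3.57 RPKM. Parp1, which senses DNA breaks, was at 21.6 RPKM, its relative Parp2 at 18.5 RPKM and Trp53 (p53) at 8.32 RPKM. Capn2 and Capn1, the catalytic subunits of the classical calpains, were at 0.922 and 0.763 RPKM, and Hif1a, which mediates the response to low oxygen, was the highest member at 37.6 RPKM.

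The counts of some members could include pairs from neighbours, because a pair was counted for every gene whose exons it touched and strand was not used. Of the 42 members, 18 shared exonic bases with another gene of the annotation and 10 shared over 10% of them. The largest shares were 40.9% for Diablo, 35.7% for Endog (with Spout1), 27.1% for Capn2 (with Gm37885), 25.8% for Bad (with Gpr137), 18.3% for Ppif and 17.7% for Bid (with Bcl2l13). In Cycs, 26.1% of the 50-base stretches of its transcripts also occurred in transcripts of other genes, such as Gm10053, so its level is uncertain.

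The first comparison asked which members differed between C57BL/6J and BALB/c cones without Txnip. Bcl2 and Parp1 were higher in C57BL/6J, and Capn1 and Hif1a were lower. These 4 calls, 2 in each direction, were 12.9% of the 31 members tested, against 17.5% of all 14751 genes (8.03% higher and 9.52% lower in C57BL/6J), with edgeR's quasi-likelihood test and a Benjamini-Hochberg adjusted p under 0.05. The median log2 fold change of the members was 0.11, and that of all genes was 0.00 (-0.0012). The 11 members left out had too few counts to be tested. Of the 4 called, Bcl2 had too few counts to be tested within BALB/c, and Capn1 within either strain. Capn1 therefore entered this fit on its BALB/c counts, while Bcl2 had enough counts for a test within C57BL/6J. Each was thus tested on counts from the strain where it was high.

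The same comparison in the Txnip libraries, which shares no library with the first, called 5 members. Parp1 and Diablo were higher in C57BL/6J, and Bcl2l1, Trp53 and Capn1 were lower. That was 16.1% of the 31 members, against 17.6% of all genes (8.24% higher and 9.38% lower). In the control and the Txnip comparison, 2 members were called in both, Parp1 and Capn1, each in the same direction in both, and 7 in either, while of all genes 1644 were called in both, all in the same direction, and 3543 in either. Capn1 had 3 counts over the C57BL/6J controls and 0 over the C57BL/6J Txnip libraries, and it entered both tests on its BALB/c counts. Its shared direction is therefore no separate support. The groups did not overlap for 3 of the 31 members in controls, against 18.6% of all genes, and for 7 with Txnip, against 17.9%.

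**Figure D2:**
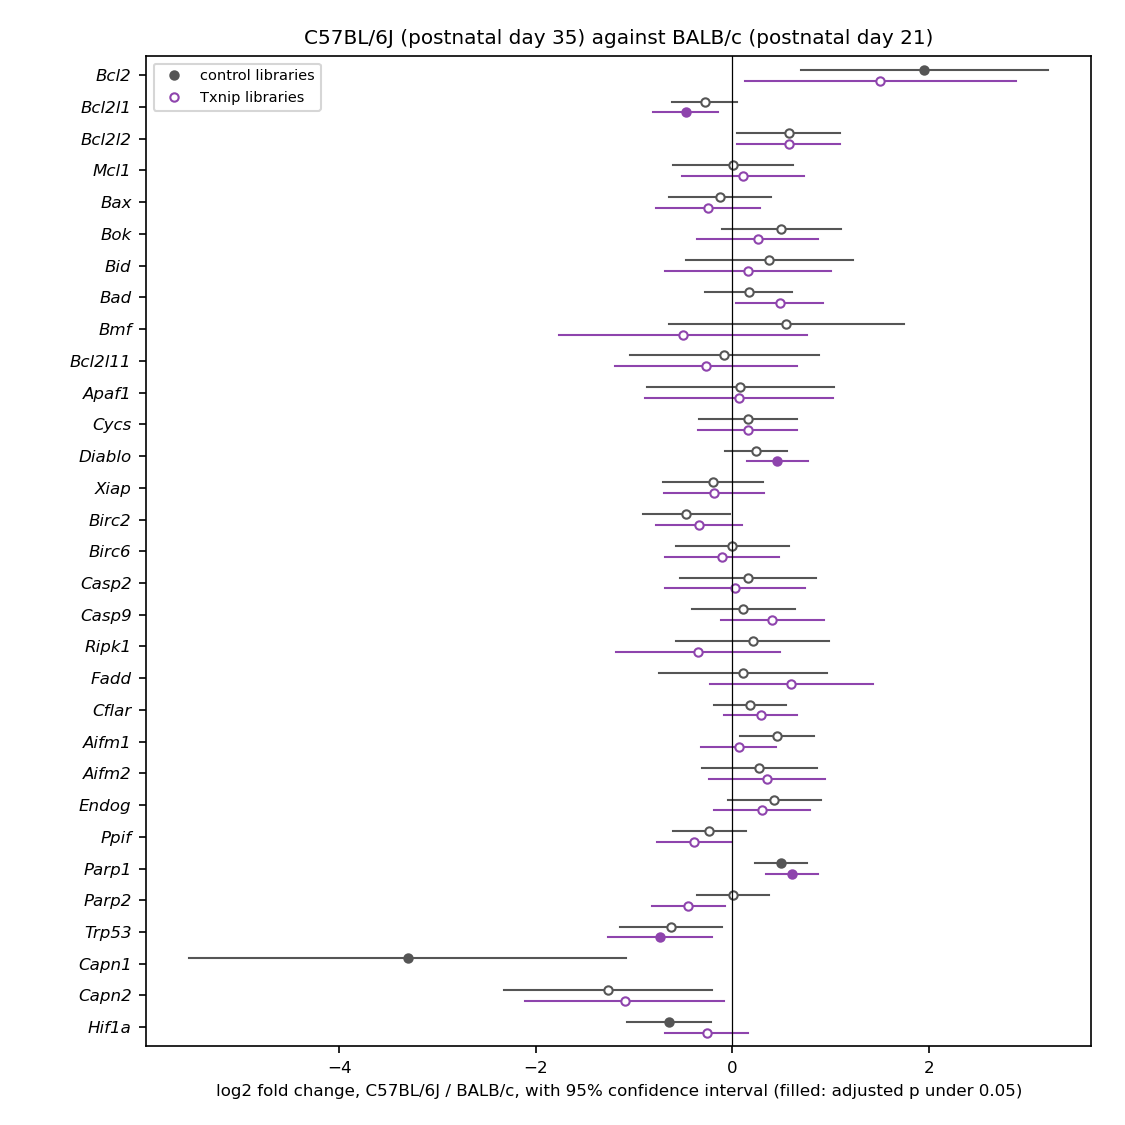
Log2 fold change of C57BL/6J (postnatal day 35) against BALB/c (postnatal day 21) for the 31 members tested, with 95% confidence intervals, in control libraries (grey) and in Txnip libraries (purple), where filled points have an adjusted p under 0.05. Parp1 is filled on the right in both, at 0.50 and 0.61, and Capn1 lies furthest left, with its value in the Txnip libraries left out because all 3 C57BL/6J libraries had no counts.

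The starts of Parp1 and Capn1 are shown because these genes differed between the strains in both comparisons. Each stretch holds 250 bases before and 50 bases from the gene's start (RefSeq, GRCm38.p6), written 5′ to 3′ on the gene's strand. Parp1 lies at chr1:180568641-180568940 on the plus strand, and the stretch of Capn1 at chr19:6015776-6016075 on the minus strand. Capitals mark the letters ACGTG on either strand, the core of the site that HIF-1 binds.

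Parp1: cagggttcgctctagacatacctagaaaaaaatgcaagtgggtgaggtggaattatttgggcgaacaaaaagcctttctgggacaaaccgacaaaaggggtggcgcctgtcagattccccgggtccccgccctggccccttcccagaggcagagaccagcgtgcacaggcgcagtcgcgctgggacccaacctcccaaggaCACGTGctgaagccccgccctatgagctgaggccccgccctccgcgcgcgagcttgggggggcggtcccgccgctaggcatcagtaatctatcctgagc

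Capn1: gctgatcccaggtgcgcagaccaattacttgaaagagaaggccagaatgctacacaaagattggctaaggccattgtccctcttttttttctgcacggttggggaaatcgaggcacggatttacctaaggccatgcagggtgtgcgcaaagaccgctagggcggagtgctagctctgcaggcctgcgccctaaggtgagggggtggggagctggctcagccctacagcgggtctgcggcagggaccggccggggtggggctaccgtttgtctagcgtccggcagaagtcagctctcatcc

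In Parp1, 2 matches on opposite strands overlapped as CACGTG, and Capn1 held none. Of the 53 promoters listed for 40 of the members, 16 (30.2%) held ACGTG on either strand, against 19.6% of all 32851 promoters of this length, and 1 (1.9%) held TAATCC, the letters that the photoreceptor factor CRX binds, against 7.1%. Such matches describe the letters alone. G and C made up 62.0% of the stretch of Parp1 and 59.3% of that of Capn1.

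Parp1 levels in the 6 BALB/c control libraries ran from 85.5 to 115 CPM with a median of 87.2 CPM, and in the 3 C57BL/6J control libraries they were 127, 131 and 143 CPM. In the Txnip libraries, Parp1 was between 88.4 and 120 CPM in BALB/c, with a median of 103 CPM, and at 168, 146 and 157 CPM in C57BL/6J. No C57BL/6J library overlapped with a BALB/c library of the same treatment. The log2 fold change was 0.50 ± 0.13 (SE) in controls, with an adjusted p of 0.00981, and 0.61 ± 0.13 with Txnip, with an adjusted p of 0.00197 by edgeR. Without C57BL/6J control replicate 3 the first value was 0.45, with an adjusted p of 0.0615, and with all genes of at least 1 count tested its adjusted p was 0.0624. Without the 2 libraries with a high rod share, both calls stood, at 0.52 and 0.65 with adjusted p of 0.0170 and 0.00284 in edgeR. Parp2, which responds to DNA breaks as well, had a log2 fold change of 0.01 ± 0.18 in controls and -0.45 ± 0.18 with Txnip, and the latter did not pass, with an adjusted p of 0.0899 in edgeR. It passed without C57BL/6J Txnip replicate 1, at -0.69 (adjusted p = 0.0175), with only genes of at least 10 counts in every library (0.0479), and with the rod share (0.0207) or the ribosomal RNA share (0.0392) as a covariate.

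Capn1 was counted in all 6 BALB/c control libraries, at 2.13 to 6.16 CPM with a median of 3.18 CPM, and in 4 of the 6 BALB/c Txnip libraries, at up to 9.63 CPM. In C57BL/6J it had 1, 0 and 2 counts in the controls and 0 counts in each of the 3 Txnip libraries. The 2 BALB/c libraries without counts were Txnip replicates 5 and 6. Over pooled counts, BALB/c controls were 10.5-fold above C57BL/6J controls (56 against 3 counts, 95% counting interval 3.41 to 52.3), and with Txnip the BALB/c level of 3.91 CPM was at least 14-fold higher than the C57BL/6J level, taking 3 counts over the group as the limit. The adjusted p was 0.0293 in controls and 0.00262 with Txnip (edgeR). Capn1 had too few counts to be tested within either strain, and it entered this fit on its BALB/c counts. With only the 2 control groups in the fit, Capn1 was not called. The call in controls was lost without each of the 3 C57BL/6J control libraries, at adjusted p of 0.0734, 0.0942 and 0.0733 without replicates 1, 2 and 3, and at 0.0577 without the 2 libraries with a high rod share, whereas the call with Txnip stood, at 0.00659 without them. On these few counts the fitted log2 fold change in controls was -3.30, against -3.39, -2.84 and -4.00 without replicates 1, 2 and 3, and -3.38 without the libraries with a high rod share. Exons of Capn1 share 10.9% of their bases with Gm10814 on the opposite strand, which had 19 counts in all.

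Capn2, the other catalytic subunit, lay in the same direction without passing. Its levels were 2.96 to 14.97 CPM in BALB/c controls and 1.43 to 5.04 CPM in C57BL/6J controls, and 4.65 to 11.5 CPM against 3.46 to 3.80 CPM with Txnip, where the groups did not overlap. The log2 fold change was -1.26 ± 0.51 in controls (adjusted p = 0.0881 in edgeR) and -1.09 ± 0.49 with Txnip (adjusted p = 0.130 in edgeR). It was called in controls without C57BL/6J control replicate 1, at -1.97 and an adjusted p of 0.0259 in edgeR, and without both libraries with a high rod share, at an adjusted p of 0.0232.

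Bcl2 counts were low in BALB/c, where controls ran from 0.440 to 6.23 CPM with a median of 2.12 CPM and Txnip libraries from 0 to 3.85 CPM with a median of 2.72 CPM. The C57BL/6J controls were at 11.5, 5.73 and 13.03 CPM, and the C57BL/6J Txnip libraries at 4.07, 6.24 and 6.92 CPM. The 2 groups overlapped in 1 C57BL/6J control library, and they did not overlap with Txnip. The log2 fold change was 1.95 ± 0.61 in controls (adjusted p = 0.0278 in edgeR) and 1.51 ± 0.67 with Txnip, which did not pass (adjusted p = 0.122 in edgeR). At 0 to 20 counts a library, Bcl2 had too few to be tested within BALB/c, and it was tested only within C57BL/6J, where it was high. The call in controls was lost without BALB/c control replicate 3, 4 or 5 (adjusted p of 0.0527, 0.0518 and 0.0591), without C57BL/6J control replicate 1 or 3 (0.0703 and 0.131) and without the 2 libraries with a high rod share (0.0618), while the log2 fold change stayed at 1.72 to 1.87.

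Bcl2l1 levels, in contrast to Bcl2, were lower in C57BL/6J with Txnip. The 6 BALB/c Txnip libraries ran from 107 to 130 CPM with a median of 121 CPM, and the C57BL/6J Txnip libraries were at 66.7, 85.9 and 105 CPM, all below them. The controls overlapped, at 84.9 to 124 CPM in BALB/c and 69.9 to 104 CPM in C57BL/6J. The log2 fold change was -0.47 ± 0.16 with Txnip (adjusted p = 0.0429 in edgeR) and -0.28 ± 0.16 in controls (adjusted p = 0.239 in edgeR). The call was lost without BALB/c Txnip replicate 2, 4 or 5 (adjusted p of 0.0629, 0.0712 and 0.0711), without C57BL/6J Txnip replicate 1 or 2 (0.212 and 0.0717) and without the libraries with a high rod share (0.0531). The difference itself was -0.33 without C57BL/6J Txnip replicate 1 and -0.46 to -0.48 in the other cases. Bcl2l2 had log2 fold changes of 0.57 ± 0.25 in both comparisons without passing, with adjusted p of 0.123 and 0.127 in edgeR. With Txnip it passed at 0.78 (adjusted p = 0.0335) when the libraries with a high rod share were left out.

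Diablo levels ran from 66.2 to 89.9 CPM in BALB/c Txnip libraries, with a median of 71.7 CPM, and were 127, 74.1 and 98.8 CPM in the C57BL/6J Txnip libraries. The groups overlapped. Its log2 fold change was 0.46 ± 0.15 with Txnip (adjusted p = 0.0391 in edgeR) and 0.24 ± 0.15 in controls (adjusted p = 0.295 in edgeR). The call was lost without any 1 of BALB/c Txnip replicates 1 to 5 (adjusted p of 0.0633 to 0.0816) and without C57BL/6J Txnip replicate 1 or 3 (0.318 and 0.0946), where the log2 fold change was 0.25 without C57BL/6J Txnip replicate 1 and 0.42 to 0.47 in the other cases, and it stood at 0.00329 without the 2 libraries with a high rod share. Diablo shares 1193 exonic bases with Gm49027 on the same strand, whose total of 3707 counts was close to the 4426 of Diablo, so part of the change could not be assigned to 1 of the genes.

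Trp53 levels with Txnip were 29.9 to 49.5 CPM in BALB/c, with a median of 35.2 CPM, and 26.6, 20.2 and 18.7 CPM in C57BL/6J, with no overlap. In controls, BALB/c ran from 28.5 to 48.7 CPM, and the C57BL/6J libraries were at 18.7, 17.5 and 40.5 CPM, so that replicate 3 lay among the BALB/c libraries. For Trp53 the log2 fold change came to -0.74 ± 0.25 with Txnip (adjusted p = 0.0472 in edgeR) and -0.62 ± 0.25 in controls (adjusted p = 0.0862 in edgeR). In controls it was called at -1.13 (adjusted p = 0.00434) without C57BL/6J control replicate 3, and at -0.74 (adjusted p = 0.0410) without BALB/c control replicate 6. The call with Txnip was lost without BALB/c Txnip replicate 4, 5 or 6 (adjusted p of 0.0858, 0.0929 and 0.0578), without C57BL/6J Txnip replicate 2 or 3 (0.102 and 0.176), and without the libraries with a high rod share (0.0858), while the log2 fold change stayed at -0.63 to -0.74.

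Hif1a levels in the BALB/c controls were 238 to 311 CPM with a median of 248 CPM, and in the C57BL/6J controls they were 154, 194 and 157 CPM, with no overlap. With Txnip, the groups overlapped, at 130 to 280 CPM in BALB/c and 121, 217 and 223 CPM in C57BL/6J. The log2 fold change was -0.65 ± 0.21 in controls (adjusted p = 0.0338 in edgeR) and -0.26 ± 0.20 with Txnip (adjusted p = 0.419 in edgeR). The call was lost without BALB/c control replicate 4 or 5 (adjusted p of 0.0553 and 0.0518), without C57BL/6J control replicate 1 or 3 (0.0985 and 0.131), and without the libraries with a high rod share (0.0773), while the log2 fold change stayed at -0.60 to -0.63.

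**Figure D3:**
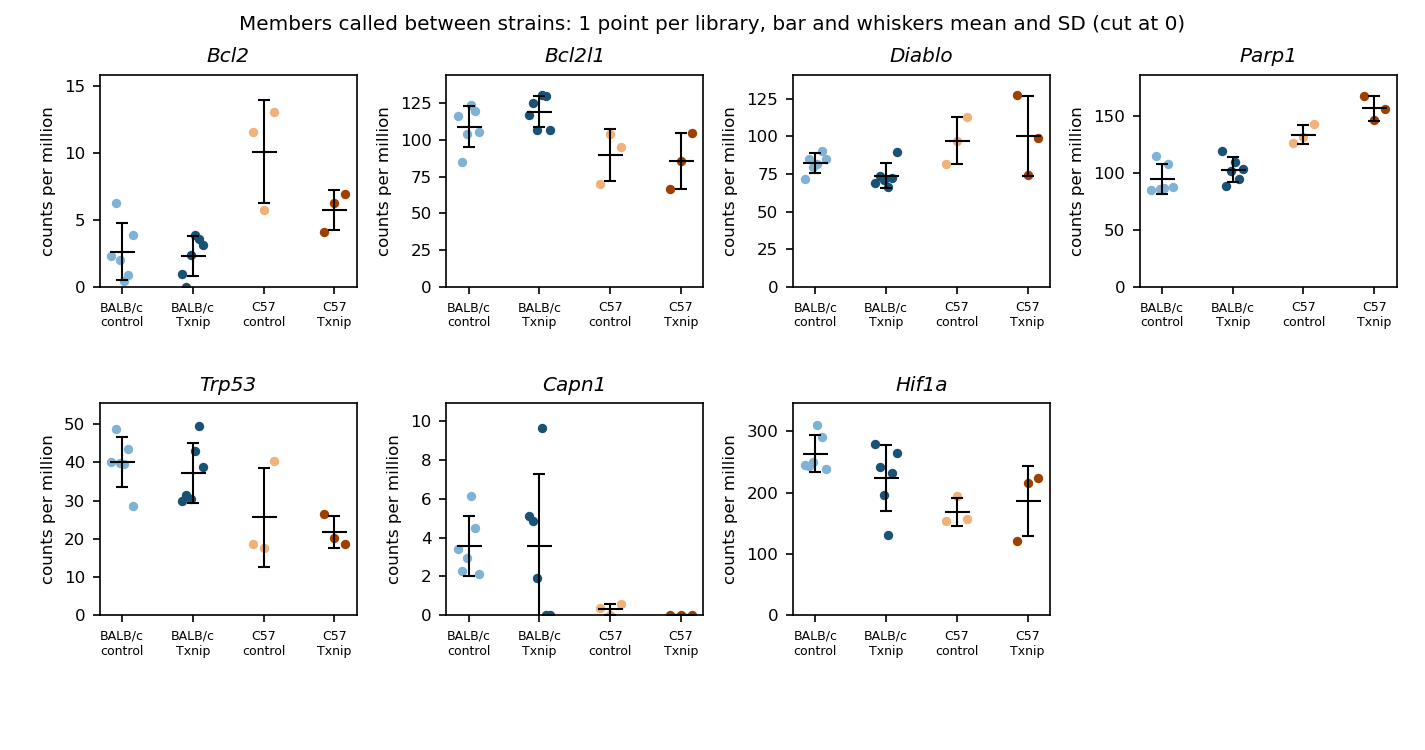
CPM of the 7 members called between strains, 1 point per library, with the mean and SD of each group (whiskers end at 0; the C57BL/6J groups are marked C57). The C57BL/6J points for Parp1 lie above the BALB/c points of the same treatment, and those for Capn1 lie at or near 0.

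The other members tested did not pass in either comparison. Among them were log2 fold changes of 0.45 ± 0.18 for Aifm1 in controls (adjusted p = 0.0856 in edgeR) and of -0.47 ± 0.21 for Birc2 in controls (adjusted p = 0.134 in edgeR). Aifm1 passed in controls with the ribosomal RNA share as a covariate (0.47, adjusted p = 0.0469), and Cflar passed with Txnip with the share of 9 or of 7 rod genes as a covariate (0.45 and 0.43, adjusted p of 0.0357 and 0.0352). For Xiap the log2 fold change was -0.20 in controls, with a 95% interval from -0.71 to 0.31, and for Birc6 it was 0.00 (-0.0013), with an interval from -0.58 to 0.57. Intervals of this width leave room for changes of sizable fold in either direction. With the 2 libraries with a high rod share left out, 2 members were called in controls (Parp1 higher and Capn2 lower) and 5 with Txnip (Bcl2l2, Bad, Diablo and Parp1 higher, and Capn1 lower), while 2742 and 3172 of 15614 genes were called.

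The second question was whether Txnip changed the levels of these genes. No member passed the test in BALB/c, where 28 members and 12017 genes were tested and 0.0166% of all genes were called, or in C57BL/6J, where 31 members and 12974 genes were tested and 0.0154% of all genes were called. At an unadjusted p under 0.05, 0 members passed in either strain, against 11.4% of all genes in BALB/c and 0.748% in C57BL/6J. DESeq2 called 0 members in either strain as well, and edgeR on all genes with at least 1 count called 1 in BALB/c, Casp1, which had 0 to 6 counts in a control library and 0 in each Txnip library. Members had a median log2 fold change of 0.05 within BALB/c and -0.06 within C57BL/6J, against 0.00 (0.0002) and 0.01 (0.012) for all genes.

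**Figure D4:**
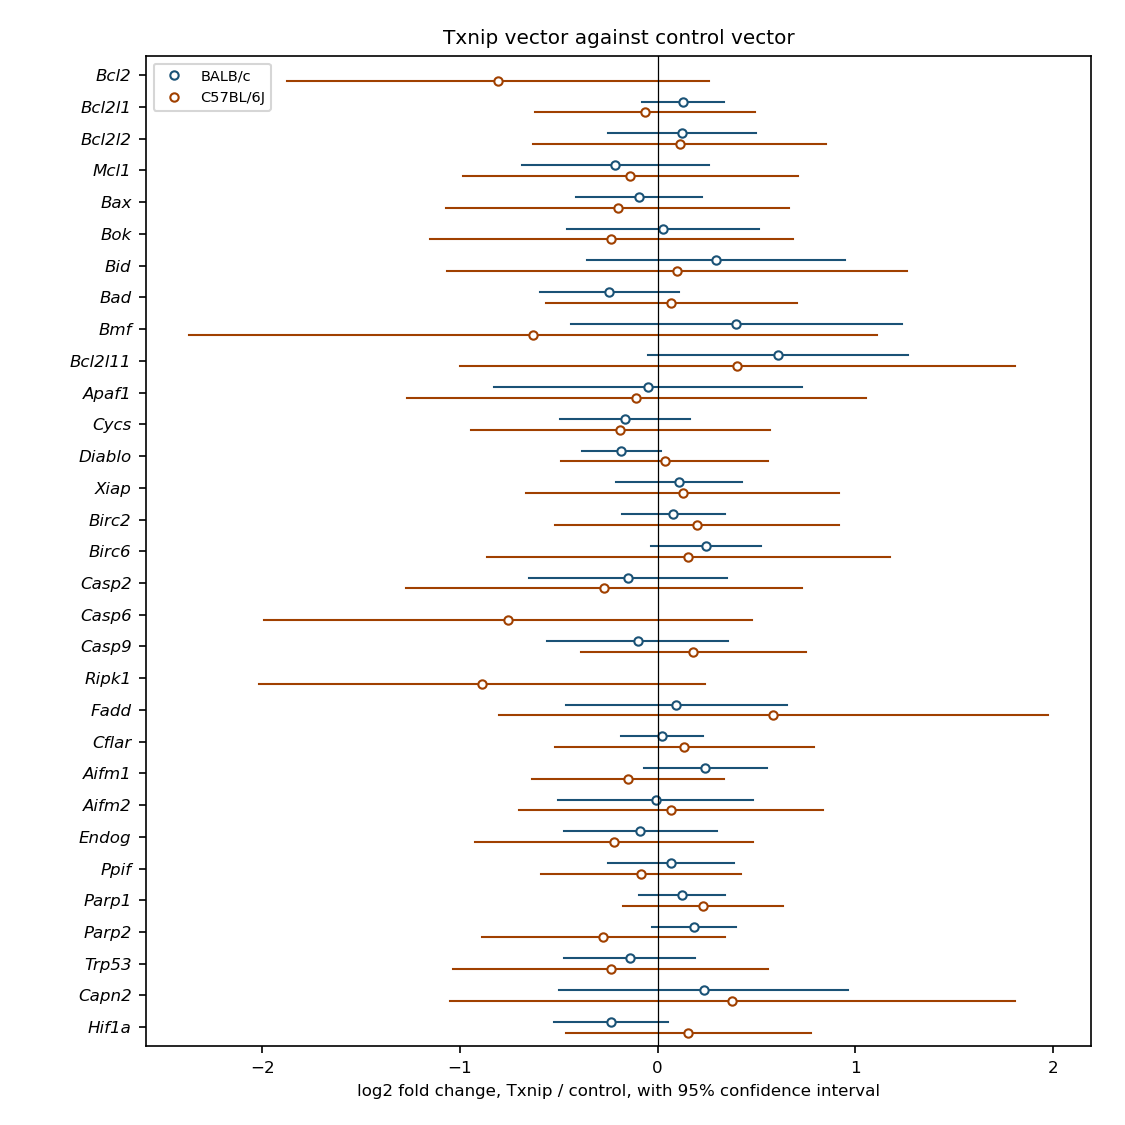
Log2 fold change of Txnip against control for the members tested in BALB/c (blue) and in C57BL/6J (brown), with 95% confidence intervals. No interval in either strain excludes 0, and those of C57BL/6J, with 3 libraries in each group, are wider, at a median of 0.79 to either side against 0.34 in BALB/c.

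In BALB/c, the 3 members with the smallest unadjusted p were Bcl2l11, Diablo and Birc6. Bcl2l11 ran from 2.47 to 8.49 CPM in controls and from 4.65 to 12.2 CPM with Txnip, a log2 fold change of 0.61 ± 0.31 (adjusted p = 0.464 in edgeR). Diablo ran from 71.3 to 90.2 CPM in controls and from 66.2 to 89.9 CPM with Txnip, a log2 fold change of -0.18 ± 0.10 (adjusted p = 0.466 in edgeR). Birc6 ran from 74.7 to 140 CPM in controls and from 109 to 147 CPM with Txnip, a log2 fold change of 0.24 ± 0.13 (adjusted p = 0.492 in edgeR). The groups overlapped for all 28 members, and 0.699% of all genes had groups that did not.

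In C57BL/6J, the 3 members with the smallest unadjusted p were Ripk1, Bcl2 and Casp6. Ripk1 was at 7.93, 7.88 and 4.71 CPM in controls and at 4.88, 2.94 and 3.23 CPM with Txnip, a log2 fold change of -0.89 ± 0.50 (adjusted p = 1 in edgeR). Bcl2, whose levels are given above, had -0.81 ± 0.47 (adjusted p = 1 in edgeR). Casp6 was at 3.60, 3.58 and 3.88 CPM in controls and at 1.90, 2.57 and 2.08 CPM with Txnip, on 7 to 14 counts a library, a log2 fold change of -0.76 ± 0.55 (adjusted p = 1 in edgeR). The groups did not overlap for 2 of the 31 members, against 4.42% of all genes, so that this count is no result about the members. They were Casp6 and Parp1, and for Parp1 the log2 fold change was 0.23 ± 0.18.

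For some of the well measured members, the intervals bound the effect of Txnip in BALB/c. The 95% interval ran from -0.08 to 0.33 for Bcl2l1, from -0.09 to 0.34 for Parp1, from -0.18 to 0.23 for Cflar and from -0.53 to 0.05 for Hif1a on the log2 scale. It ran from -0.38 to 0.01 for Diablo and from -0.03 to 0.40 for Parp2, which were measured more tightly than Hif1a. In C57BL/6J the interval for Bcl2l1 ran from -0.62 to 0.49 and that for Hif1a from -0.46 to 0.77. These ranges say how large a change could have gone unseen, and do not show that the levels were equal.

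The difference between the strains in the effect of Txnip was called for 0 of the 31 members, as for 0% of all 14751 genes. The smallest unadjusted p was 0.0817, for Parp2, which with Txnip had a log2 fold change of 0.18 ± 0.10 among BALB/c and -0.28 ± 0.27 among C57BL/6J libraries, a difference of -0.45 ± 0.25. For Parp1 the difference was 0.11, with a 95% interval from -0.27 to 0.49. DESeq2 called 0 members too.

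The other genes of these pathways, 76 in 11 lists, were set beside the members. Between strains, 13 of the 58 tested were called in controls, 5 higher and 8 lower in C57BL/6J, and 11 with Txnip, 4 higher and 7 lower, which was 22.4% and 19% of those tested, against 17.5% and 17.6% of all genes. Without the 2 libraries with a high rod share 13 and 15 were called. The lists are short, so their counts are given as descriptions. Of the p53 pathway, 4 of the 9 genes tested were called in each comparison, 2 in each direction. Cdkn1a, the cell cycle inhibitor p21 and a target of p53, ran from 7.93 to 19.95 CPM in BALB/c and from 0 to 2.17 CPM in C57BL/6J, with log2 fold changes of -4.46 in controls and -3.40 with Txnip (adjusted p of 1.80e-06 and 8.71e-06 in edgeR). Cdkn1a had 0 to 8 counts a library in C57BL/6J, so it entered the strain test on its BALB/c counts. Ccng1, another p53 target, averaged 122 CPM in the BALB/c controls (SD 16.7, n = 6) and 62.7 CPM in the C57BL/6J controls (SD 8.12, n = 3), with log2 fold changes of -0.95 and -0.82. Sesn1, also a p53 target and named after its values were seen, was called higher, at 0.66 and 0.62.

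Of the calpain system, 2 of 6 genes were called lower in controls and 1 with Txnip. Capn5 had log2 fold changes of -3.91 and -3.26 (adjusted p of 0.00258 and 0.00341 in edgeR), with 0 to 4.77 CPM in C57BL/6J against 5.06 to 22.1 CPM in BALB/c. Cast, the inhibitor calpastatin, had -1.56 and -1.44 (adjusted p of 0.0491 and 0.0790 in edgeR). In C57BL/6J, Capn5 had 0 to 13 counts a library and Cast 2 to 8, so both entered the strain test on their BALB/c counts. Of the hypoxia pathway, 2 of the 7 genes tested were called higher in controls and 1 with Txnip. Egln1, the oxygen sensor that marks HIF-1α for degradation, had log2 fold changes of 1.57 and 1.34 (adjusted p of 0.000474 and 0.00215 in edgeR), and Epas1 (HIF-2α) had 1.94 and 1.43 (adjusted p of 0.0142 and 0.0732 in edgeR). In Epas1 the high values came from the 2 libraries with a high rod share, at 40.0 and 36.0 CPM, against 4.85 to 8.32 CPM in the other 4 C57BL/6J libraries.

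Of the inflammasome and pyroptosis list, 3 of 7 genes were tested and 1 was called. Gsdme, which encodes a gasdermin, was well expressed, at 319 to 457 CPM in BALB/c controls and 139 to 180 CPM in C57BL/6J controls, with log2 fold changes of -1.22 and -1.48 (adjusted p of 4.41e-06 and 3.90e-07 in edgeR). Of the ferroptosis list, 2 of the 6 genes tested were called lower in controls and 0 with Txnip. Gpx4, which removes lipid peroxides, averaged 235 CPM in the BALB/c controls (SD 19.9, n = 6) and 171 CPM in the C57BL/6J controls (SD 27.7, n = 3), a log2 fold change of -0.45 (adjusted p = 0.0384 in edgeR), and -0.30 with Txnip (adjusted p = 0.171 in edgeR). Acsl4, which supplies the lipids that are oxidized, had -1.72 and -1.10 (adjusted p of 0.0200 and 0.0929 in edgeR).

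Of the death receptors and adaptors, 4 of 9 genes were tested, 1 was called lower in controls and 2 with Txnip. Tnfrsf21 (DR6) had log2 fold changes of -3.08 and -2.21 (adjusted p of 0.0113 and 0.0463 in edgeR), and Faim2, an inhibitor of Fas signalling, had -1.44 and -1.82 (adjusted p of 0.0560 and 0.0181 in edgeR). In Faim2 the C57BL/6J controls were far apart, at 75.7, 1.79 and 10.3 CPM, the highest being replicate 1, a library with a high rod share. Tnfrsf21 and Capn5 were each at 4.77 CPM in C57BL/6J Txnip replicate 2, the other such library, and at 0 to 1.79 CPM in the other 5 C57BL/6J libraries. Tnfrsf21 had 0 to 13 counts a library in C57BL/6J and, like Capn5, entered the strain test on its BALB/c counts. Of the other BCL2 proteins, 1 of 4 was called, Bcl2l13, at 0.43 and 0.48 (adjusted p of 0.0420 and 0.0245 in edgeR). None of the PARP pathway (7 tested), the permeability transition (5 tested) or the regulators of inhibitor of apoptosis proteins (2 tested) was called in edgeR in either comparison.

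Txnip called none of these pathway genes, with 54 tested in BALB/c and 53 in C57BL/6J by edgeR. In BALB/c, 6 of them had an unadjusted p under 0.05, about the 11.4% of all genes that did, and in C57BL/6J 0 did. Under the alternatives 0 to 4 were called in BALB/c and 0 in C57BL/6J.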

How the data were processed

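RNA was measured in 18 libraries of sorted mouse cones, 1 per retina, made with a modified Smart-Seq2 protocol. The deposited counts are whole numbers of read pairs per gene. Per the file headers, the authors made them with featureCounts 1.6.2 on exons of Ensembl release 94 (GRCm38), counting a pair for every gene it overlapped and without using strand. The submitters' processing notes name STAR, DESeq2 and GRCm38.p6. Tables of the authors' own comparisons hold fold changes and p-values and were not used. The 42 genes and the other lists were chosen with earlier results of these data known. Of 54532 genes, 123 had no symbol.

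Groups followed the labels. edgeR 4.0.16 (R 4.3.3) was used with filterByExpr, TMM scaling, the quasi-likelihood test and Benjamini-Hochberg adjustment over all genes tested, at 0.05. Txnip was compared with control within each strain, and the strain differences and the difference in Txnip effect came from 1 fit of all 4 groups. CPM were computed on TMM sizes and RPKM per 1000 exonic bases. The SE is the unshrunken coefficient divided by the square root of the F statistic. Intervals of log2 fold changes carry the spread between libraries, whereas the interval of the pooled Capn1 counts and the limits on counts of 0 (3 counts) cover counting error only. Library totals ran from 647712 to 5172156, and low genes were measured least precisely in the smallest library. Libraries of a group differed beyond sampling noise in all 36 pairs, the smallest chi-square per degree of freedom being 1.83. The fits were tested on simulated data.

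Every member is named. Full statistics are given for the members called in any comparison and for the 3 with the smallest p in each Txnip comparison, and from each pathway list at most 2 genes with the smallest adjusted p between strains in controls were named. Sesn1 was named outside this rule. Of the 11 pathway lists, 1 is counted in the totals but not reported on its own here. The alternatives were DESeq2 1.42.0, other scalings, filters and thresholds, robust dispersion, covariates, a replicate block and leaving out libraries.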

Additional observations from a re-analysis of the deposited data

Results flagged for a closer look

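In 3 of the 56 groups of 6 BALB/c libraries checked, 1 for each member tested and treatment, 1 library stood apart from the other 5 by Dixon's criterion, about the 1 in 20 that chance gives. Diablo was at 89.9 CPM in BALB/c Txnip replicate 6, against 66.2 to 73.5 CPM in the others of that group. Parp2 was at 54.2 CPM in BALB/c control replicate 5, against 66.3 to 70.8 CPM. Capn2 was at 14.97 CPM in BALB/c control replicate 4, against 2.96 to 6.98 CPM. The cause was not tested.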

How the results depend on the processing

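The count of members called between strains in controls was 4 of 31, where 2588 of all 14751 genes were called. It was 2 of the 17 members tested with only genes of at least 10 counts in every library, where 1507 of 7887 genes were called. At an adjusted p under 0.1 it was 7, and 3605 of 14751 genes were called. Without the 2 libraries with a high rod share (chosen after seeing the data) it was 2, and 2742 of 15614 genes were called. With Txnip it was 5 of 31, where 2599 of 14751 genes were called. It was 3 of the 42 members tested with all genes of at least 1 count (2637 of 43750 genes). It was also 3 with an absolute log2 fold change over 0.5 required as well (2465 of 14751 genes). Leaving out 1 library at a time gave 1 to 5 members in controls and 2 to 4 with Txnip, while 1605 to 2489 and 1848 to 2875 of all genes were called. The fit with the replicate number as a block called 0 members in controls and 2 with Txnip (Parp1 and Capn1), and 0 for Txnip in either strain. It called 1645 and 1810 of 14751 genes between strains. In controls its log2 fold changes were 0.49 for Parp1, 2.12 for Bcl2, -3.32 for Capn1 and -0.67 for Hif1a. The numbers do not pair the libraries: same-numbered libraries correlated at -0.065 to 0.099 in BALB/c and -0.108 to 0.078 in C57BL/6J, and 1 and 0 libraries, respectively, correlated best with their own number. For Txnip in BALB/c, all genes with at least 1 count gave 1 member (Casp1, on few counts) and 1400 of 40933 genes, against 2 of 12017. DESeq2 gave 76 of 40922 genes, and the share of 7 rod genes as a covariate 133 of 12017. Leaving out 1 library gave 2 to 258 genes, the highest without BALB/c Txnip replicate 1. Between strains, genes of at least 10 counts in every library gave 1507 and 1475 called of 7887 genes, against 2588 and 2599 of 14751. The block gave 1645 of 14751 in controls, and leaving out C57BL/6J control replicate 3 gave 1605 of 15479. With all genes of at least 1 count, 5 of 35386 genes were called for Txnip in C57BL/6J, against 2 of 12974. For the difference between strains it was 186 of 43750, against 0 of 14751. The Txnip effect in C57BL/6J and the difference between strains stayed at 0 members in all alternatives run. No called member reversed. With all genes of at least 1 count, the calls of Bcl2l1 and Diablo with Txnip were lost (adjusted p of 0.143 and 0.122), at log2 fold changes of -0.46 and 0.47. With the share of 7 rod genes as a covariate those of Bcl2l1 (0.0706) and Trp53 (0.0677) were lost, at -0.41 and -0.67. Under that covariate Capn2 passed in controls (-1.66, adjusted p = 0.0260) and Bad with Txnip (0.56, adjusted p = 0.0471). With the share of all 9 rod genes, Hif1a in controls (0.0554) and Bcl2l1 with Txnip (0.0695) were lost, and with only the 2 groups compared in the fit Diablo with Txnip (0.0768). In that fit of the controls, 30 members were tested and Bcl2, Parp1 and Hif1a were called, so the call of Capn1 was gone as well. The sign of the log2 fold change turned under some setting for 11 of 28 members for Txnip within BALB/c, 19 of 31 within C57BL/6J, and between strains for 14 of 31 in controls and 10 of 31 with Txnip. The other pathway genes called between strains numbered 5 to 16 in controls and 5 to 15 with Txnip under the alternatives. Wide intervals in C57BL/6J, with 3 libraries a group, and few counts for Capn1 and Bcl2 limit these results. Leaving out libraries by their share on all 9 rod genes was not run, since none passed the limit of 2 times the highest BALB/c share. The highest BALB/c share was 1.46%, and the highest of all was 2.40%, in C57BL/6J control replicate 1.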
